A study of Mus musculus with 6 samples.

Results

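Of the 598 miRNA names measured in macrophage exosomes, 6 were listed by name as the miR-15/16 seed family, and all 6 were found. These are mmu-miR-15a-5p, mmu-miR-15b-5p, mmu-miR-15b-3p, mmu-miR-16-5p, mmu-miR-195a-5p and mmu-miR-322-5p, and the species prefix is left out hereafter. Small RNA had been sequenced from exosomes of RAW264.7, an established wild-type mouse macrophage cell line, with 3 M0-exo and 3 M2-exo samples, all labelled as batch 1. The M0-exo came from untreated cells. The M2-exo came from cells kept for 24 h with 20 ng/mL of each of the cytokines IL-4 and IL-13, and both supernatants were collected in serum-free medium. The labels do not say whether the 3 samples of a group came from separate cultures. The p-values therefore rest only on the spread between these samples, which may be technical. In the edgeR fit used below this spread was pooled over all names (prior degrees of freedom infinite). Its p-values and standard errors thus do not measure each miRNA's own spread.

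The miR-15/16 family is an ancient group of miRNAs made from paired hairpins at several loci. A miRNA guides the Argonaute protein to messenger RNAs that match its seed, the bases near its 5′ end, and lowers their output. The members of this family are known as brakes on cell division and survival, through targets such as cyclins and Bcl2, and the loss of the miR-15a/16-1 locus is a known lesion of chronic lymphocytic leukaemia. miR-16-5p is abundant in most cell types, in red cells and in plasma, and is often used as a reference in qRT-PCR of extracellular RNA.

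The mature sequences are shown because they decide which names form one family. Each is written 5′ to 3′ as deposited, with the seed (bases 2 to 8) in capitals, and each was identical to the RefSeq entry of that name.

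miR-16-5p: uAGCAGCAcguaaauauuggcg
miR-15b-5p: uAGCAGCAcaucaugguuuaca
miR-15a-5p: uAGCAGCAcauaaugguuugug
miR-195a-5p: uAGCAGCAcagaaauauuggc
miR-322-5p: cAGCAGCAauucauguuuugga
miR-15b-3p: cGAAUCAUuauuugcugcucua

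The first 5 sequences carried the seed AGCAGCA, and miR-15b-3p did not. miR-15b-3p is the opposite strand of the miR-15b hairpin. It belonged to the list through its hairpin and not through its seed, which reads GAAUCAU. Its bases 13 to 19 read UGCUGCU, the reverse complement of the family seed, since that stretch lies opposite the guide in the folded hairpin. A search of all 598 sequences found 6 names with the family seed, the 5 above and miR-497a-5p. One further name, miR-503-5p, matched over bases 2 to 7 only.

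miR-497a-5p: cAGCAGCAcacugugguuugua
miR-503-5p: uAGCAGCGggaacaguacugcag

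Outside the seed the members diverged. miR-16-5p and miR-195a-5p were identical at 19 of 21 compared bases and differed by the substitutions G10A and U11G, counted from the 5′ end of miR-16-5p. miR-15b-5p and miR-15a-5p were identical at 18 of 22 bases, with the earliest difference at position 12 (C12A). miR-16-5p and miR-15b-5p shared 14 of 22 bases. How many mismatches the counting allowed is not given in the sources used here, so a read of an abundant member that was assigned to a rare one was not excluded.

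The members came from 4 clusters, given here as RefSeq places them on GRCm38. miR-15b-5p (chr3:69009775-69009796, plus strand), miR-15b-3p (chr3:69009813-69009834) and one copy of miR-16-5p (chr3:69009918-69009939) lie in an intron of Smc4, which encodes a condensin subunit needed for chromosome compaction. The starts of miR-15b-5p and miR-16-5p are 143 bases apart. The other copy of miR-16-5p (chr14:61631936-61631957, minus strand) and miR-15a-5p (chr14:61632075-61632096) lie 139 bases apart in an intron of the noncoding gene Dleu2. miR-195a-5p (chr11:70235062-70235082, plus strand) has miR-497a-5p as its neighbour, and miR-322-5p (chrX:53054306-53054327, minus strand) lies beside miR-503 and miR-351. GENCODE M21 places no other gene around these last loci. The deposited table has no coordinates, and mm39 is the build named in the submitters' processing notes, so none of these positions was used in the counting.

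A full match to the family seed in a transcript reads TGCTGCT. The table measures no target, but the known targets show what such a site looks like. In GENCODE M21 the longest annotated 3′UTRs of Bcl2, a survival protein, of Ccne1, cyclin E1, and of Ccnd1, cyclin D1, each held 1 match, shown in capitals with 10 bases on either side.

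Bcl2, chr1:106540799-106540805, minus strand: agaaaccctgTGCTGCTatcctgccaa
Ccne1, chr7:38098024-38098030, minus strand: attttgtaagTGCTGCTatgtctatca
Ccnd1, chr7:144930395-144930401, minus strand: catgccaccaTGCTGCTggcccggggg

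The sites in Bcl2 and Ccne1 are followed by an A, the base opposite position 1 of the miRNA, and the one in Ccnd1 is not. The heptamer, read on the transcript strand only, occurred in 20.3% of 21020 annotated 3′UTRs of all lengths, and with the A in 4.04%. The study followed Syk and Stat3 as targets of a miRNA outside this family. Their longest 3′UTRs held 0 matches to these 7 letters. A match measures no binding.

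The libraries held between 860204 and 1453348 counts over the 598 names. Levels are given as CPM, counts per 1000000 counts after TMM scaling, which adjusts each library total for its makeup. As a check of the cell type, the 6 myeloid miRNAs of a marker list were all detected, with a summed level of 1353 to 1839 CPM in M0-exo against 1274 to 1559 CPM in M2-exo. Within that sum the names moved apart, with log2 fold changes of -1.04 for miR-155-5p (adjusted p = 1.85e-10 in edgeR), 0.55 for miR-21a-5p (0.0258), 0.45 for miR-142a-3p (0.0408) and 1.60 for miR-223-3p (0.0582). The remaining names of the list were miR-146a-5p at -0.55 (adjusted p = 0.492 in edgeR) and miR-142a-5p at 0.22 (0.761). M2-exo replicate 3 stood apart in miR-122-5p, a liver miRNA, with 2184 counts against 51 to 137 in the other libraries. M2-exo replicates 1 and 2 were also above every M0-exo library, at 160 and 128 CPM against 40.3, 47.1 and 54.8 CPM. The log2 fold change of miR-122-5p was 4.30 (adjusted p = 3.54e-112 in edgeR), with M2-exo replicate 3 at 2497 CPM. By edgeR's quasi-likelihood test, with a threshold of 0.5 on the size of the log2 fold change and of 0.05 on the unadjusted p, 22 of the 598 names (3.68%) were higher and 38 (6.35%) lower in M2-exo, and with the library total as the only scaling 10 were higher and 63 lower. At an adjusted p below 0.05 alone, 25 (4.18%) were higher and 28 (4.68%) lower.

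Among the 6 members, 3 passed this threshold, all higher in M2-exo, against the 3.68% of all names. These were miR-16-5p, miR-15b-5p and miR-15b-3p. The first pair also passed an adjusted p of 0.05, against 4.18% of all names, and 0 members were lower by either rule. Calls by the unadjusted rule were commoner among names with a mean of at least 100 CPM. Of the 44 such names below 50% GC, miR-16-5p and miR-15b-5p included, 8 were higher and 2 lower. Of the 64 others, 7 were higher and 18 lower. miR-15b-3p was one of the miRNAs that the study chose for its fold change in these libraries, so its call is not independent evidence. The median log2 fold change was 0.77 over the 6 members and 0.03 over all names. Over the 108 names of at least 100 CPM it was 0.09. The median of the members includes miR-15b-3p and miR-195a-5p, which held only 36 and 28 counts in all. In 4 of the 6 members, miR-15b-3p included, every M2-exo library stood above every M0-exo library, against 9.53% of all names. That share covers names of every level, with 181 to 230 of them at 0 counts in each library. It was not taken over abundant names alone. Among those, let-7c-5p, miR-24-3p and miR-26a-5p separated in the same way, and miR-103-3p and miR-107-3p overlapped. With exosome preparations of this kind, more vesicles that hold a miRNA and more copies per vesicle cannot be told apart.

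miR-16-5p, the main member, had 21807, 16331 and 12770 counts in M0-exo replicates 1, 2 and 3 and 16327, 16564 and 19835 in M2-exo. At these depths its levels were 13962, 13042 and 13731 CPM in M0-exo against 19112, 19855 and 22681 CPM in M2-exo. The groups did not overlap, and the lowest M2-exo library stood well above the highest M0-exo library. The level rose from 13578 ± 479 CPM (SD, n = 3) to 20549 ± 1883 CPM, a 1.51-fold difference or 0.60 on the log2 scale (standard error, SE, 0.08, adjusted p = 1.28e-12 in edgeR's quasi-likelihood test). It ranked 10 of 598 by total count.

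miR-15b-5p, which shares the Smc4 intron with one copy of miR-16-5p, had 818, 647 and 466 counts in M0-exo against 647, 570 and 699 in M2-exo. Its levels were 524, 517 and 501 CPM in M0-exo against 757, 683 and 799 CPM in M2-exo. Again the groups did not overlap. The level rose from 514 ± 11.6 CPM (SD, n = 3) to 747 ± 58.8 CPM, or 1.45-fold, with a log2 fold change of 0.54 (SE 0.14, adjusted p = 0.00268 in edgeR's quasi-likelihood test).

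miR-15a-5p, the Dleu2 partner of the other miR-16 copy, was far rarer, with 51, 28 and 12 counts in M0-exo against 32, 45 and 36 in M2-exo. This gave 32.7, 22.4 and 12.9 CPM in M0-exo against 37.5, 53.9 and 41.2 CPM in M2-exo. The groups did not overlap, but the spread within each was wide, and M0-exo replicate 1 came close to the lowest M2-exo library. The log2 fold change was 0.95 (SE 0.50, 95% interval -0.04 to 1.93), and the adjusted p was 0.374 in edgeR's quasi-likelihood test. It passed the unadjusted threshold only without M0-exo replicate 1 (log2 fold change 1.31, unadjusted p-value 0.0208 in edgeR).

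miR-322-5p, the X-linked member and the mouse form of human miR-424, had 36, 33 and 15 counts in M0-exo against 15, 8 and 37 in M2-exo. The groups overlapped, and M2-exo held both the lowest and the highest level, 9.59 and 42.3 CPM. The log2 fold change was 0.08 with a 95% interval from -1.17 to 1.33 (adjusted p = 0.96 in edgeR's quasi-likelihood test), so a difference was not detectable in these samples. Without M2-exo replicate 3 it was -0.68.

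miR-195a-5p, a member known from muscle and heart, was at the limit of detection. It had 5, 0 and 4 counts in M0-exo against 1, 8 and 10 in M2-exo. For the library at 0 counts the level may lie anywhere up to 3 counts, worth 2.40 CPM there. The groups overlapped and the log2 fold change of 1.53 had a standard error of 1.85 (adjusted p = 0.647 in edgeR's quasi-likelihood test). All 28 counts together were few beside the 103634 of miR-16-5p, from which the sequence differs at the positions given above.

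miR-15b-3p had 2, 0 and 0 counts in M0-exo against 4, 19 and 11 in M2-exo. Every M2-exo library stood above every M0-exo library. On the pooled counts, 34 against 2, the level was 24.8 times as high in M2-exo, with an exact 95% interval from 6.37 to 213 that covers counting error only. The unadjusted p-value was 0.00865 and the adjusted p 0.0834 in edgeR's quasi-likelihood test. Without M2-exo replicate 2 the unadjusted p-value was 0.151 in edgeR. The libraries also differed in how they filled low counts, with 11 to 17 names at 1 or 2 counts in each M0-exo library and 56 to 79 in each M2-exo library, and the part of this in the value of miR-15b-3p was not tested.

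**Figure D1:**
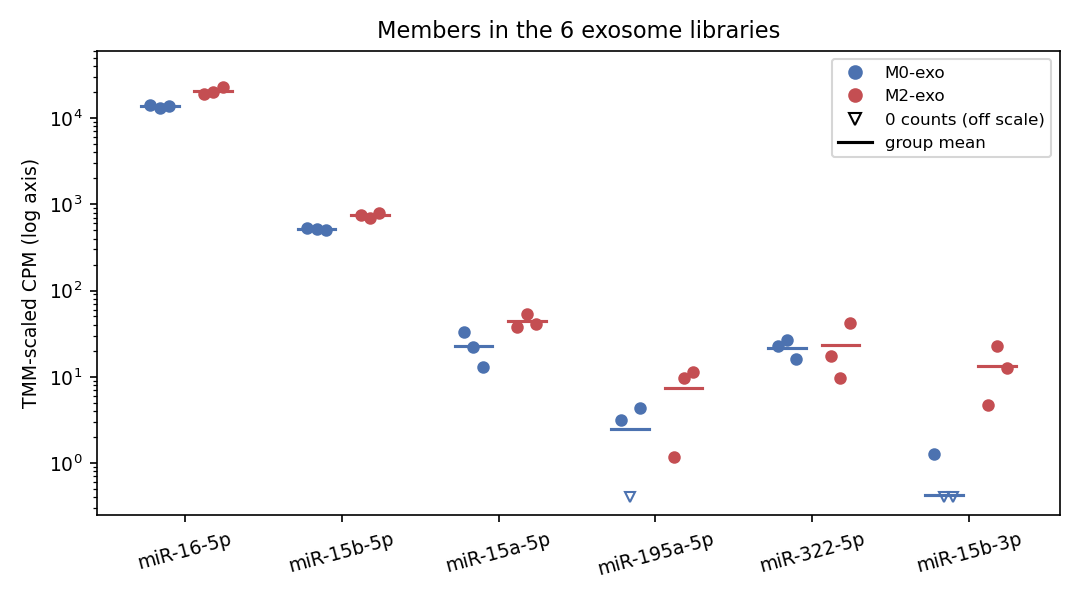
TMM-scaled CPM on a log axis for the 6 members in each M0-exo library (blue) and M2-exo library (red), with a line at each group mean and open triangles for libraries at 0 counts. miR-16-5p lies near 13578 CPM in M0-exo against 20549 CPM in M2-exo, while miR-195a-5p and miR-15b-3p hold only a few counts.

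**Figure D2:**
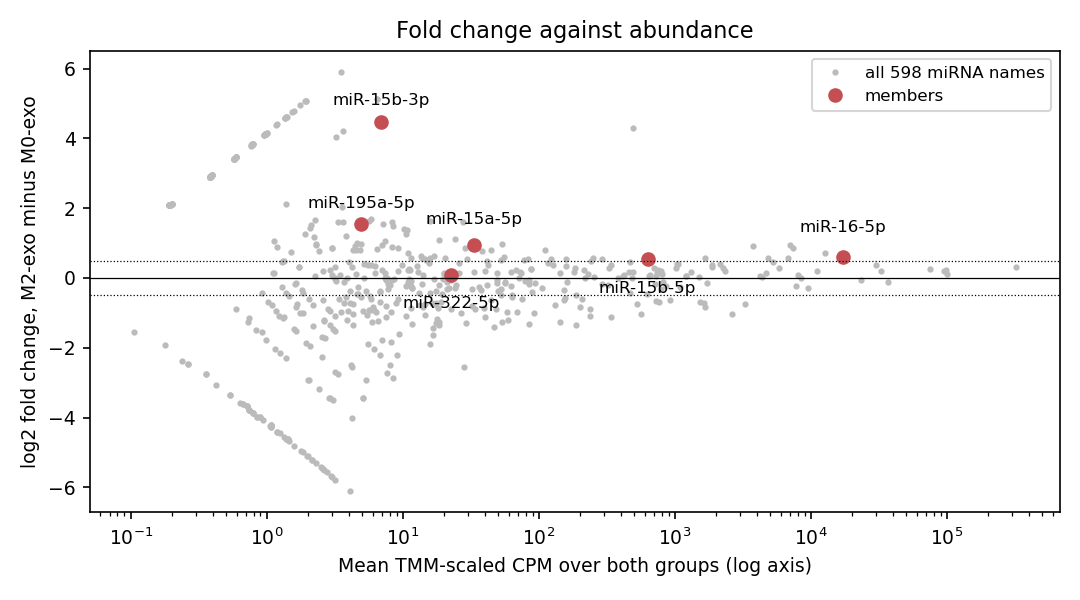
The log2 fold change (M2-exo minus M0-exo, TMM scaling) of all 598 names (grey) and the members (red) against the mean CPM on a log axis, with dotted lines at log2 fold changes of 0.5 and -0.5. miR-16-5p (0.60) and miR-15b-5p (0.54) lie just outside the upper dotted line in a region of narrow spread.

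Within each library the order of the members was steep. miR-16-5p made up between 95.78% and 96.26% of the counts with the family seed in the 6 libraries, with Wilson 95% intervals that together ran from 95.47% to 96.53%. miR-15b-5p made up 3.31% to 3.80%, and the remaining 4 names, miR-497a-5p included, held 42 to 124 counts per library. Below these the order of miR-15a-5p, miR-322-5p and miR-497a-5p changed from library to library, and in M0-exo the count ratio of miR-15a-5p to miR-322-5p ran from 0.80 to 1.42, so they were not separated there. These are orders of counts, and adapters join some miRNA ends more readily than others, so they need not be orders of molecules.

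The 6 names with the seed summed to 1.57%, 1.48% and 1.54% of all counts in M0-exo replicates 1, 2 and 3 and to 1.82%, 2.0% and 2.13% in M2-exo. The Wilson 95% intervals ran from 1.45% to 1.59% over the M0-exo libraries and from 1.79% to 2.16% over the M2-exo libraries, for counting error only. On the TMM scale the summed level was 14152 ± 488 CPM (SD, n = 3) in M0-exo against 21389 ± 1930 CPM in M2-exo. This sum is in the main miR-16-5p.

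A ratio of counts within a library does not depend on the scaling between libraries. miR-16-5p was 26.7, 25.2 and 27.4 times miR-15b-5p in M0-exo against 25.2, 29.1 and 28.4 times in M2-exo. The proportion between these cluster mates thus overlapped between groups (exact two-sided permutation test over the 6 libraries, p = 0.5, adjusted p = 0.5 over 6 pairs). The other 5 pairs among miR-16-5p, miR-15b-5p, miR-15a-5p and miR-322-5p overlapped as well, with exact permutation p-values from 0.2 to 0.4, where 0.1 is the smallest that 20 arrangements allow. Their spread was wide, with a log2 standard deviation of up to 1.27 in M2-exo for miR-15a-5p over miR-322-5p.

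The relatives with a shifted seed served as an outside measure. miR-103-3p and miR-107-3p begin with the letters AGCAGCA that the family carries from base 2, so their seed reads GCAGCAU. They differ from each other by the substitution G22C alone, so shared reads were not excluded.

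miR-103-3p: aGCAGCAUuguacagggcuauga
miR-107-3p: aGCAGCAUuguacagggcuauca

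miR-103-3p stood at 1483 ± 48.7 CPM (SD, n = 3) in M0-exo against 1524 ± 85.6 CPM in M2-exo, with overlapping groups and a log2 fold change of 0.04 (95% interval -0.19 to 0.27). miR-107-3p likewise had a log2 fold change of 0.04. Counted against miR-103-3p in the same library, miR-16-5p stood at 9.73, 8.79 and 8.96 in M0-exo against 13.4, 12.8 and 14.2 in M2-exo. miR-15b-5p stood at 0.365, 0.348 and 0.327 and at 0.530, 0.440 and 0.502. Neither ratio overlapped between the groups, and no scaling enters these values.

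**Figure D3:**
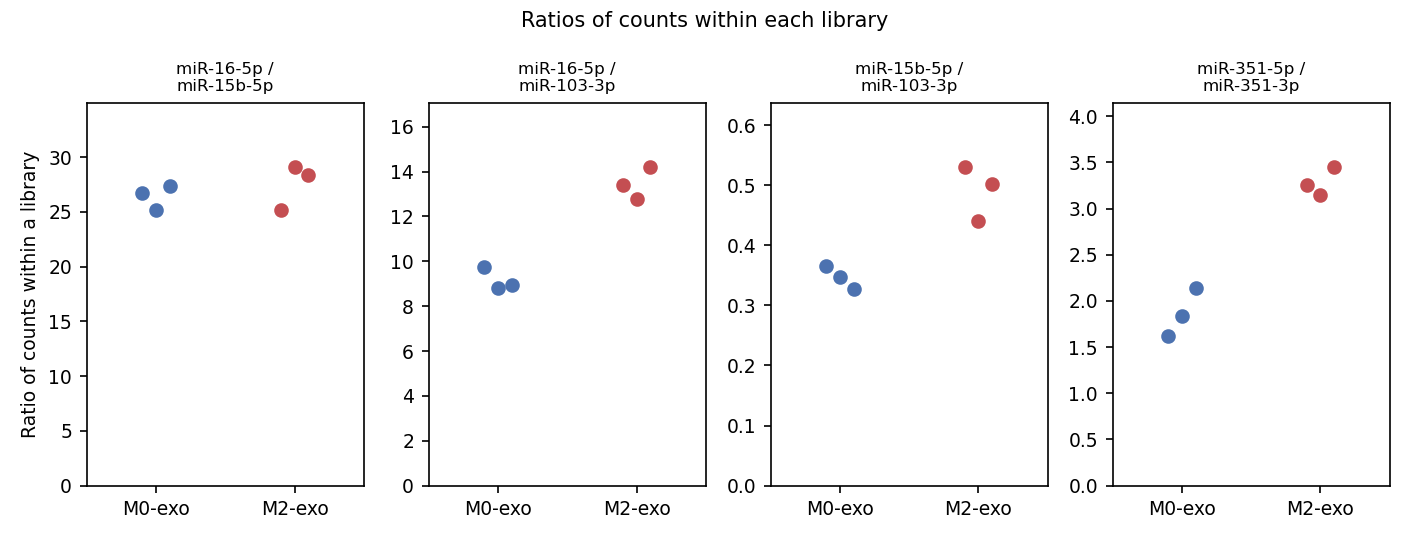
Ratios of counts within each library, on linear axes from 0, for M0-exo (blue) and M2-exo (red), 3 libraries each. The ratio of miR-16-5p to miR-15b-5p overlaps between groups, while both members are higher against miR-103-3p in M2-exo, as is miR-351-5p against its opposite arm miR-351-3p.

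The same holds over the abundant miRNAs as a whole. Of the 106 names outside the family with a mean of at least 100 CPM, the ratio of miR-16-5p to the other name was higher in all 3 M2-exo libraries than in any M0-exo library for 75 and lower for 1. For miR-15b-5p these numbers were 72 and 3. The median of this number over the 108 names of at least 100 CPM was 25, and 7 names had a higher number than miR-16-5p and 9 a higher one than miR-15b-5p. By log2 fold change, 6 of the 108 lay above miR-16-5p and 12 above miR-15b-5p.

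The call at 0.5 did not hold under every scaling. With the library total alone the log2 fold change was 0.38 for miR-16-5p and 0.32 for miR-15b-5p, and with the let-7 counts left out of the library size it was 0.46 and 0.41, whereas DESeq2's size factors gave 0.58 and 0.52. The median over all names moved along, from 0.03 under TMM to -0.18 and -0.10, and relative to that median miR-16-5p stood at 0.57, 0.56 and 0.57. A change of library scaling shifts all names nearly alike, so this distance could hardly move. Over all settings it ran from 0.424 with an offset for GC content to 0.663 without M2-exo replicate 1. For miR-15b-5p it ran from 0.255 with that offset to 0.642 without M2-exo replicate 2. Base composition moved with the groups too. The 44 abundant names below 50% GC had a median log2 fold change of 0.20 and the 64 others one of -0.08. The seed members had 40.9% to 45.5% GC, below the median of 54.5% for all names, and an offset for GC content left log2 fold changes of 0.40 for miR-16-5p and 0.24 for miR-15b-5p, the latter with an adjusted p of 0.581 in edgeR's test.

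**Figure D4:**
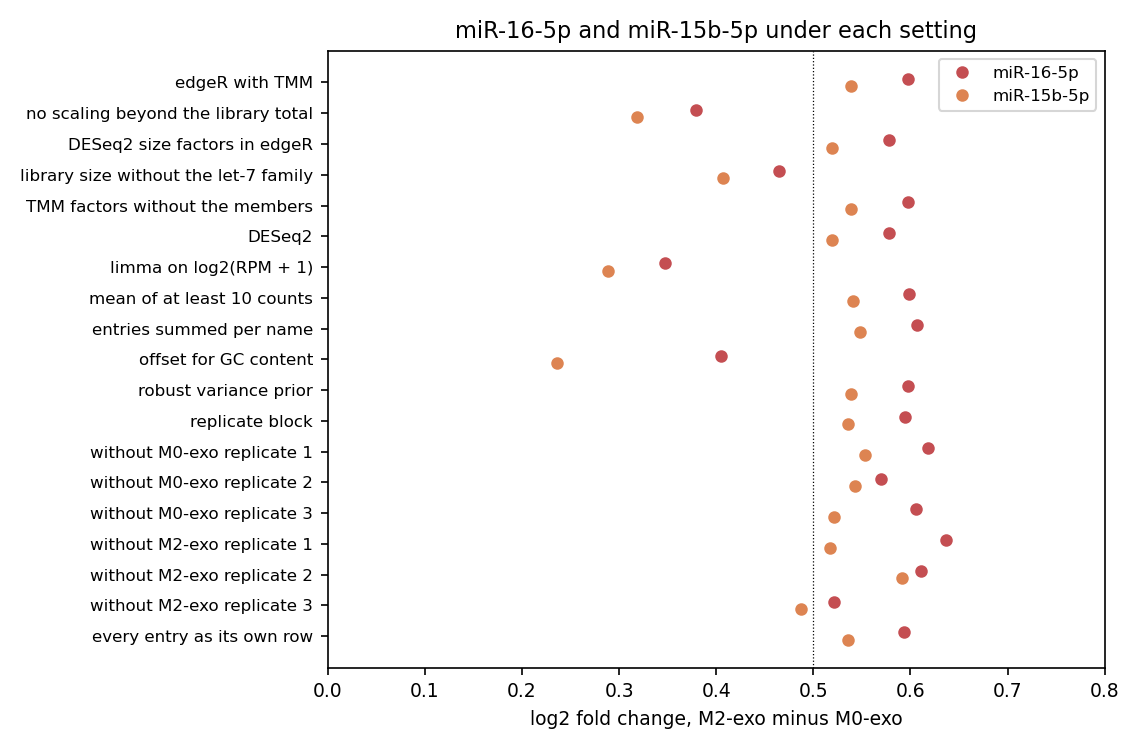
The log2 fold change (M2-exo minus M0-exo) of miR-16-5p (red) and miR-15b-5p (orange) in edgeR with TMM and in each of the 18 alternatives, with a dotted line at 0.5. All values lie above 0, from 0.35 to 0.64 for miR-16-5p and from 0.24 to 0.59 for miR-15b-5p, and both fall left of the line with the library total alone, without let-7, with limma and with the GC offset, as does miR-15b-5p without M2-exo replicate 3 (0.49).

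Among the other arms and neighbours of the 4 clusters, 10 of 16 listed names were in the table, and 1 of the 10 passed the threshold, against 6.35% lower among all names. This was miR-351-3p, from the X-linked cluster of miR-322. It had 586, 647 and 477 counts in M0-exo against 160, 194 and 195 in M2-exo. Every M2-exo library was below every M0-exo library, and the level fell from 468 ± 80.6 CPM (SD, n = 3) to 214 ± 23.8 CPM, with a log2 fold change of -1.13 (SE 0.17, adjusted p = 4e-09 in edgeR's quasi-likelihood test).

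The opposite arm of that hairpin did not follow at the same size. miR-351-5p stood at 608, 950 and 1097 CPM in M0-exo against 610, 734 and 770 CPM in M2-exo, which overlapped. Its log2 fold change was -0.33 (SE 0.13, adjusted p = 0.118 in edgeR's quasi-likelihood test). It passed the threshold at -0.54 without M0-exo replicate 1, with the library total as the only scaling and with limma. The count ratio of miR-351-5p to miR-351-3p was 1.62, 1.84 and 2.14 in M0-exo against 3.26, 3.15 and 3.45 in M2-exo, with no overlap. With the GC offset the values were -0.63 for miR-351-3p and 0.00 for miR-351-5p.

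Closer to miR-322-5p in the same cluster, no call was made. miR-503-5p, the partial seed match, had 28, 38 and 8 counts in M0-exo against 21, 7 and 26 in M2-exo. Its log2 fold change was 0.13 (95% interval -1.22 to 1.49). The opposite arm miR-322-3p had 38, 26 and 0 counts in M0-exo against 24, 25 and 37 in M2-exo, with a log2 fold change of 1.12 (95% interval -0.10 to 2.33) that passed the unadjusted threshold without M0-exo replicate 1 (1.62) or 2 (1.37), with a replicate block (1.53) and with limma (1.65). miR-322-3p thus had about as many counts in all, 150, as miR-322-5p, 144, whereas miR-15b-3p had 36 beside the 3847 of miR-15b-5p.

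miR-497a-5p, the remaining name with the full seed and the neighbour of miR-195a-5p, had 32, 9 and 11 counts in M0-exo against 24, 13 and 9 in M2-exo. The groups overlapped, and its log2 fold change was 0.44 (95% interval -1.18 to 2.05). The opposite arms miR-15a-3p, miR-16-1-3p, miR-16-2-3p, miR-195a-3p and miR-497a-3p, and miR-542-3p of the X-linked cluster, were not in the table. miR-542-5p, miR-450a-5p, miR-450b-5p, miR-450b-3p and miR-503-3p, all of the X-linked cluster, did not pass the threshold and held between 1 and 77 counts in all.

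**Figure D5:**
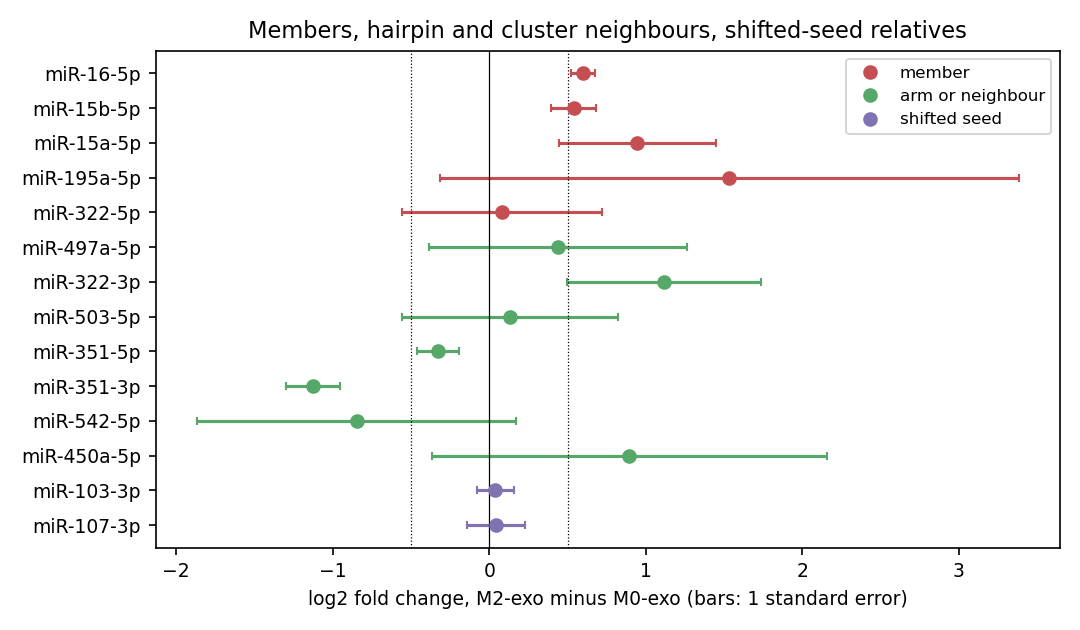
The log2 fold change (M2-exo minus M0-exo) with bars of 1 standard error for members (red), other arms and cluster neighbours (green) and shifted-seed relatives (purple), for names above 3 counts in both groups. The intervals of miR-16-5p and miR-15b-5p are narrow and right of 0, that of miR-351-3p is narrow and left of -0.5, and miR-103-3p and miR-107-3p lie at 0.04.

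Which copy of miR-16 gave the reads could not be read from the table. Its entries for the chromosome 14 and chromosome 3 hairpins listed nearly the same reads, 21807 and 21795 in M0-exo replicate 1, and differed by 8 to 39 counts in the 6 libraries, at most 0.197% of the larger entry. The chromosome 14 entry was the larger in each library. Each partner is specific to its locus, and miR-15b-5p exceeded miR-15a-5p by 16 to 38.8 times in M0-exo against 12.7 to 20.2 times in M2-exo.

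miR-16-5p is also rich in red cells and serum, so a list of such miRNAs was set beside it. The list had 4 of its 6 names in the table, and miR-144-3p and miR-144-5p were not among them. miR-451a, a red cell marker of the list, had 6, 0 and 10 counts in M0-exo against 7, 3 and 14 in M2-exo. miR-486a-5p had 80, 138 and 74 against 103, 56 and 87, and miR-150-5p had 40, 0 and 0 against 4, 9 and 9. With all 4 names the list summed to 121 to 157 CPM in M0-exo against 210 to 2623 CPM in M2-exo, with no overlap. Of these names miR-122-5p was higher in every M2-exo library than in any M0-exo library. Without miR-122-5p the list summed to 80.7 to 110 CPM in M0-exo against 81.5 to 133 CPM in M2-exo, which overlapped. A part of serum RNA in the level of miR-16-5p was not tested. Without M2-exo replicate 3, the library highest in miR-122-5p, the log2 fold changes were 0.52 for miR-16-5p and 0.49 for miR-15b-5p. The latter was just under the threshold on the fold. Of the neuronal markers miR-124-3p was not in the table, and miR-9-5p and miR-128-3p summed to 37.5 to 55.9 CPM in M0-exo against 24.0 to 42.0 CPM in M2-exo.

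The miRNAs whose pattern over the 6 libraries lay closest to that of miR-16-5p were miR-26a-5p, miR-7a-5p and miR-24-3p. Their centred log2 CPM differed from it by a root mean square of 0.0679, 0.0969 and 0.0998, among 106 names of at least 100 CPM. For miR-15b-5p they were miR-99a-5p, miR-24-3p and miR-26a-5p, at 0.0706, 0.0766 and 0.0803. miR-16-5p and miR-15b-5p differed from each other by 0.0776 on this measure, so each lay about as close to names outside the family as to its cluster mate. miR-26a-5p, the closest to miR-16-5p, had a log2 fold change of 0.57 and miR-7a-5p one of 0.71.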

How the data were processed

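Small RNA libraries of 3 M0-exo and 3 M2-exo samples were grouped by their labels. The authors deposited read counts per mature miRNA and precursor, with RPM values, and these deposited RPM values were checked to equal the count per 1000000 counts over 638 entries, to within 0.005. Replicates were not pooled, except in the ratio of pooled counts given for miR-15b-3p. The build named in the submitters' processing notes is mm39. The aligner, counting tool and filters are not given in the sources used here. Where several precursors carried the same name, the entry with most counts over the 6 libraries stood for it, which left 598 names. Counts were compared with edgeR 4.0.16 in R 4.3.3 (TMM, glmQLFit and glmQLFTest, no covariates, all names, Benjamini-Hochberg adjustment), and the steps were tested on simulated data. There 68.8% of changed names with a mean of at least 10 counts were called, 10.8% of changed names under it and 5.28% of unchanged names. The simulated counts were drawn with the fitted dispersion, so they could not test that dispersion. Calls used the study's thresholds, 0.5 on the size of the log2 fold change and 0.05 on the unadjusted p. Standard errors are the log2 fold change over the root of its F statistic. Alternatives used DESeq2 1.42.0 and limma 3.58.1. Ratios were tested by exact permutation (scipy 1.17.1), and matplotlib 3.10.9 drew the figures.

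Depth was 860204 to 1453348 counts, so that 3 counts, the limit that a count of 0 allows, were worth 1.92 to 3.60 CPM on the TMM scale. No molecular identifiers are described, and the Wilson and exact intervals cover counting error only. The intervals of log2 fold changes come from the edgeR standard errors and so include the fitted spread between libraries. Samples of one group were no duplicates of each other, with a chi-square over its degrees of freedom between 7.28 and 29.6 in the 6 pairs. Positions and sequences come from RefSeq on GRCm38.p6 and GENCODE M21. The members, lists and tests were chosen with earlier results of these data known. Named miRNAs were the members, their other arms and cluster neighbours, names sharing the seed, miR-103-3p, miR-107-3p, marker lists, and the 3 names closest in pattern to miR-16-5p and to miR-15b-5p.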

Additional observations from a re-analysis of the deposited data

How the results depend on the processing

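The results were recomputed under 18 alternative fits, 1 of them (every entry as its own row) added after seeing the data. The direction held in all 18 for miR-16-5p, miR-15b-5p and miR-15a-5p and in all 17 that could test miR-195a-5p and miR-15b-3p, which the filter at a mean of 10 counts removes. Calls of miR-16-5p and miR-15b-5p ended in 4 fits, and that of miR-15b-5p also without M2-exo replicate 3. The call of miR-15b-3p was lost when M2-exo replicate 2 was left out. DESeq2's size factors in edgeR kept all 3. With no scaling beyond the library total, the library size without let-7, limma on log2(RPM + 1) and the GC offset, in this order, the number of members past the threshold was 1 in each (miR-15b-3p, against 3), and the log2 fold change was 0.379, 0.464, 0.347 and 0.405 for miR-16-5p, 0.318, 0.407, 0.289 and 0.236 for miR-15b-5p and -0.155, -0.0516, -0.357 and -0.263 for miR-322-5p, which thereby reversed. The adjusted p of miR-16-5p was below 0.05 in all 18 fits (up to 0.0499), that of miR-15b-5p in 15 and that of miR-15b-3p in 2 of 17, all from edgeR, DESeq2 or limma. Its size depended on the names that shared the variance. With names under a mean of 10 counts left out, the adjusted p in edgeR's quasi-likelihood test was 6.44e-05 for miR-16-5p, 0.00376 for miR-15b-5p and 0.000203 for miR-351-3p. With limma the share of calls that were higher was 15.5%, with let-7 left out 19.4% and with no scaling 13.7%, against 36.7%. Over all names 53 passed an adjusted p of 0.05, against 25 with the GC offset and 33 to 59 with a library left out.

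Leaving out each library in turn gave 2 to 4 members past the threshold and log2 fold changes of 0.521 to 0.637 for miR-16-5p, 0.487 to 0.591 for miR-15b-5p, 0.677 to 1.31 for miR-15a-5p, 0.968 to 2.10 for miR-195a-5p, -0.685 to 0.423 for miR-322-5p and 3.87 to 6.68 for miR-15b-3p. The remaining members held at most 204 counts over the 6 libraries. Of the neighbours, miR-503-5p reversed with no scaling (-0.103) and with limma (-0.106) and in 3 fits that left out a library (-0.201, -0.0261 and -0.206, in a range up to 0.631), and miR-497a-5p in 1 (-0.0422, in a range up to 0.92). The cause was not tested.

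The deviations of like-numbered samples from their group means had correlations of -0.0533, 0.0045 and -0.0395 (241 miRNAs), and the numbers are read as names only. A fit with the replicate block called 56 miRNAs, against 60, and the members past the threshold numbered 3 as before, with log2 fold changes of 0.594 for miR-16-5p, 0.536 for miR-15b-5p and -0.136 for miR-322-5p.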
